A study of Homo sapiens with 9 samples.

Results

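The route from the insulin and insulin-like growth factor receptors to the FOXO transcription factors was followed through 9 genes: INSR, IGF1R, IRS1, IRS2, PIK3CA, PIK3R1, FOXO1, FOXO3 and TXNIP. The names were listed with earlier results of these data known, and every probe set annotated to exactly 1 of them was taken. The supplied annotation gave 28 such probe sets for 8 of the genes, out of 54613 on the array besides its controls, and PIK3CA was not analysed here. Of the 28, 25 lay above the filter on dim probe sets, a mean signal of about 38.95, and were tested among 32768 probe sets. For a single value per gene, the brightest probe set stood for its gene, which gave these 8 among 13948 tested genes.

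Insulin and the insulin-like growth factors bind the receptor tyrosine kinases encoded by INSR and IGF1R, which phosphorylate the docking proteins IRS1 and IRS2. These recruit PI3-kinase, whose p85 regulatory subunit comes from PIK3R1 and whose p110 catalytic subunit comes from PIK3CA, and its lipid product activates AKT. AKT phosphorylates FOXO1 and FOXO3 and holds them out of the nucleus, so that genes switched on by FOXO factors, IRS2 among the best known, are read less when insulin signalling is strong. TXNIP, an alpha-arrestin, binds thioredoxin and lowers glucose uptake, and its gene is known for its response to glucose through the MLX and MLXIPL factors.

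RNA came from PANC-1, a cell line of human pancreatic adenocarcinoma. Groups were 3 arrays each from PANC-1 given DMSO alone, 0.1 µM TVB-3166 or 1.0 µM TVB-3166 for 72 hours, and TVB-3166 is an inhibitor of fatty acid synthase, the enzyme that makes palmitate. All 3 groups were moved a day after seeding to a medium with 1% charcoal-filtered serum, down from 10% serum. The study asks what the inhibitor does to transcript levels in these tumour cells. Nothing in the labels says that the 3 replicates of a group were separate cultures, so the p-values measure only the spread between these arrays, which may be technical.

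Each value is a hybridisation signal on a linear scale, scaled by the authors so that the trimmed mean of each array was 500.1, and median signals ran between 66.7 and 79.1. Array number limits the precision, and signals of different probe sets cannot be set against each other. Of the epithelial keratins KRT7, KRT8, KRT18 and KRT19 (summed signal 34309.8 to 72345.1 per array), the last 3 were bright, and KRT7 had a mean signal of 318.2 in DMSO. At 1.0 µM KRT7 rose (1.06 on the log2 scale) while KRT8 and KRT19 fell (-0.86 and -0.90), and the part of these keratins in the results below was not tested. Of 13 measured markers of leukocytes, endothelium, acinar and endocrine pancreas, liver and prostate, 10 were below the filter, leukocyte markers included (summed signal 25.7 to 115.7 per array). The 3 others, PECAM1, APOA1 and KLK3, had adjusted p-values of 0.140 to 0.988 at 1.0 µM and 0.495 to 0.840 at 0.1 µM by limma. The hybridisation controls parted the arrays into a lower set (DMSO replicates 1 and 3, 0.1 µM replicate 2, 1.0 µM replicates 1 and 3) and a higher set (DMSO replicate 2, 0.1 µM replicates 1 and 3, 1.0 µM replicate 2). Values within these sets stand beside the called genes. The higher set has 1 DMSO array and 1 array at 1.0 µM, and the lower set has 1 array at 0.1 µM, so a value there rests on 1 array in those groups and its spread comes from the other groups.

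The promoters of IRS2 and TXNIP are shown because both genes rose and both are described as FOXO-responsive. The stretches are the 250 bases before the RefSeq start on GRCh38.p14, read along the minus strand on which both genes lie, at chr13:109786584-109786833 for IRS2 and chr1:145996580-145996829 for TXNIP. Capitals mark matches, on either strand, to 4 motifs: GTAAACA and CAAAACAA, letters that forkhead factors are known to bind, CCAAT, the box bound by NF-Y, and a pair of CACGNG with any 5 bases between, a loose form of the carbohydrate response element. No match of 1 motif overlaps a match of another.
IRS2: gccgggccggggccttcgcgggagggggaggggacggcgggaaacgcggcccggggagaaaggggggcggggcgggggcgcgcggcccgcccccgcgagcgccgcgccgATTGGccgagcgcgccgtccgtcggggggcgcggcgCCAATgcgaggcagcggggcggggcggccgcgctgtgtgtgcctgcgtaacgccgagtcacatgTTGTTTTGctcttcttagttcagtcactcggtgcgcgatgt
TXNIP: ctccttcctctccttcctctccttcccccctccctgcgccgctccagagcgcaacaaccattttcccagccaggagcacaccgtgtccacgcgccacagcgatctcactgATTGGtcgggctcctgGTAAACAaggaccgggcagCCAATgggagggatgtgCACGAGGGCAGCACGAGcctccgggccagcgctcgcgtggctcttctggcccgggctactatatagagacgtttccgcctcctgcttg
In IRS2, CAAAACAA lies on the opposite strand (printed as TTGTTTTG) with its first base at -41, and CCAAT occurs once on each strand. In TXNIP, GTAAACA begins at -124, CCAAT occurs once on each strand, and the carbohydrate response element letters CACGAGGGCAGCACGAG begin at -88. Among 35116 RefSeq windows of 300 bases, GTAAACA occurs in 3.42%, CAAAACAA in 1.68%, CCAAT in 34.6% and the carbohydrate response element form in 0.057%. The 8 genes have 15 such windows, and besides IRS2 and TXNIP a match occurred only for CCAAT, in 1 of 4 PIK3R1 windows and in that of FOXO1. A match is a description of letters, not evidence of binding.

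At 1.0 µM, IRS2 and TXNIP rose and PIK3R1 fell against DMSO, while INSR, IGF1R, IRS1, FOXO1 and FOXO3 were not called. That is 3 of 8 genes at an adjusted p under 0.05 by limma, beside 23.2% of all tested genes. At 0.1 µM TXNIP alone was called, 1 of 8 beside 12.0% of all genes. The 2 doses share the DMSO arrays, so the values at each dose are given side by side and not as 2 independent results. Between the doses, IRS2 was higher at 1.0 µM than at 0.1 µM, 1 of 8 beside 0.817% of all genes. A signal is an average over the cells of a sample, so fewer cells with a transcript and less of it per cell cannot be told apart.

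By probe set, 5 of 25 rose and 3 fell at 1.0 µM against DMSO, beside 17.6% of all tested probe sets called in either direction. At 0.1 µM 3 of 25 rose, beside 8.25% called, and in 1.0 µM against 0.1 µM 1 of 25 rose, beside 0.281% called. All 3 arrays at 1.0 µM lay on one side of the 3 DMSO arrays for 14 of the 25 probe sets, 7 higher and 7 lower, beside 33.0% of all probe sets. At 0.1 µM this held for 10 of 25, 3 higher and 7 lower, beside 27.0%. The median change of the 25 probe sets was -0.11 at 1.0 µM and -0.02 at 0.1 µM on the log2 scale. By gene, the median of the 8 was 0.11 at 1.0 µM and 0.03 at 0.1 µM, and the median over all genes was within 0.01 of 0 at both doses.

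**Figure D1:**
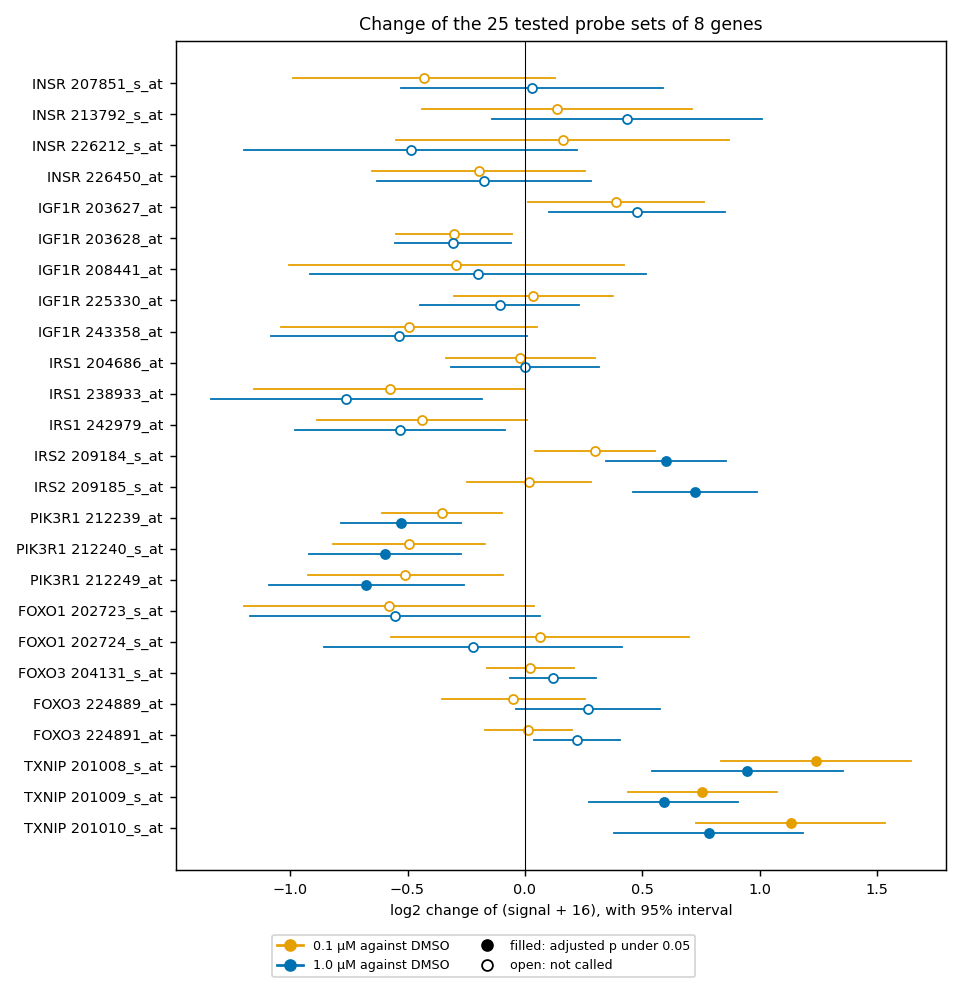
Change of each of the 25 tested probe sets against DMSO (log2 of signal + 16, horizontal axis) at 0.1 µM (upper of each pair) and 1.0 µM (lower), with limma 95% intervals and filled points where the adjusted p was under 0.05. The 3 TXNIP probe sets lie between 0.59 and 1.24 at both doses, IRS2 209185_s_at sits at 0.02 at 0.1 µM and 0.72 at 1.0 µM, and the 3 PIK3R1 probe sets lie to the left of 0.

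Neither receptor gene was called. INSR, the insulin receptor, was dim: its standing probe set 213792_s_at read 72.6, 67.4 and 157.8 on the DMSO arrays, 115.6, 93.0 and 103.0 at 0.1 µM, and 137.1, 118.2 and 138.5 at 1.0 µM. DMSO replicate 3 was above every treated array and the other 2 DMSO arrays were below every treated array, so the groups overlapped. The log2 change was 0.44 ± 0.27 (SE, n = 3 arrays a group) at 1.0 µM with an adjusted p of 0.285 by limma, and 0.14 ± 0.27 at 0.1 µM. Without DMSO replicate 3 the 1.0 µM change was 0.77 with an adjusted p of 0.0244, and with array weights it was 0.61 with an adjusted p of 0.0458 by limma. The 4 tested INSR probe sets ran from -0.49 to 0.44 at 1.0 µM, 2 on each side of 0, and the 5th, 226216_at, was too dim to test, with signals of 6.1, 26.2 and 33.0 in DMSO, 66.1, 25.4 and 87.3 at 0.1 µM, and 18.1, 26.4 and 13.3 at 1.0 µM.

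IGF1R, the receptor of insulin-like growth factor 1, had 5 tested probe sets that differed in direction. The brightest, 225330_at, read 1403.7, 1413.5 and 1348.5 in DMSO, 1369.5, 1393.8 and 1511.9 at 0.1 µM, and 1499.7, 939.1 and 1513.7 at 1.0 µM. A single array, 1.0 µM replicate 2, was low, and the other 8 lay close together. Its change was -0.11 ± 0.15 at 1.0 µM (adjusted p = 0.686) and 0.04 ± 0.15 at 0.1 µM (adjusted p = 0.916). With the higher hybridisation-control set alone, where that array stands alone against 1 DMSO array, the change was -0.58, and it was 0.13 in the lower set. Another probe set, 203628_at, read 775.3, 687.9 and 876.4 in DMSO, 608.4, 662.2 and 612.6 at 0.1 µM, and 624.8, 666.5 and 583.3 at 1.0 µM. Every treated array was below every DMSO array there, with changes of -0.31 ± 0.11 at 1.0 µM (adjusted p = 0.0845) and -0.30 ± 0.11 at 0.1 µM (adjusted p = 0.138). In contrast 203627_at had a change of 0.48 ± 0.17 at 1.0 µM (adjusted p = 0.0788) and 0.39 ± 0.17 at 0.1 µM (adjusted p = 0.209). Without DMSO replicate 3, the brightest of that group for 203627_at, these became 0.68 (adjusted p = 0.0103) and 0.59 (adjusted p = 0.0370). It was also called with the hybridisation-control set as a term (adjusted p = 0.0259 at 1.0 µM and 0.0472 at 0.1 µM by limma). With array weights, 203627_at rose at 1.0 µM (adjusted p = 0.00887 by limma), and 203628_at and 243358_at fell (0.0171 and 0.0445).

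Of the receptor substrates, IRS2 was called and IRS1 was not. IRS1, the docking protein best known in muscle and fat, had a bright probe set, 204686_at, with signals of 1378.0, 1112.9 and 917.7 in DMSO, 1031.8, 1210.6 and 1082.9 at 0.1 µM, and 1210.2, 974.5 and 1197.0 at 1.0 µM. The 3 groups overlapped, and the change was 0.00 ± 0.14 at 1.0 µM (95% interval -0.31 to 0.31) and -0.02 ± 0.14 at 0.1 µM (-0.33 to 0.29). The 2 dimmer IRS1 probe sets read lower on the treated arrays. For 238933_at the signals were 158.5, 164.6 and 224.9 in DMSO, 87.1, 155.7 and 113.6 at 0.1 µM, and 151.4, 84.9 and 76.4 at 1.0 µM, with no overlap of either dose with DMSO. Its changes of -0.76 ± 0.27 at 1.0 µM (adjusted p = 0.0692) and -0.58 ± 0.27 at 0.1 µM (adjusted p = 0.229) were not called, and without 1.0 µM replicate 1 the first became -1.03 (adjusted p = 0.0220). For 242979_at the changes were -0.53 ± 0.21 (adjusted p = 0.0992) and -0.44 ± 0.21 (adjusted p = 0.236). With the hybridisation-control set as a term, 238933_at and 242979_at were called at 1.0 µM (adjusted p = 0.0407 and 0.0270 by limma).

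IRS2, the docking protein best known in liver and pancreatic beta cells and a FOXO target there, rose at 1.0 µM. Its probe set 209185_s_at read 1589.7, 1433.5 and 1823.0 in DMSO, 1483.3, 1875.6 and 1553.6 at 0.1 µM, and 2441.4, 2688.1 and 2875.9 at 1.0 µM. The 3 arrays at 1.0 µM were above the other 6, and the 0.1 µM and DMSO arrays overlapped. Means were 1615 ± 196 in DMSO, 1638 ± 209 at 0.1 µM and 2668 ± 218 at 1.0 µM (SD, n = 3 each). The log2 change against DMSO was 0.72 ± 0.12 (SE) at 1.0 µM, or 1.65-fold, with an adjusted p of 0.000954, and 0.02 ± 0.12 at 0.1 µM with an adjusted p of 0.943 and a 95% interval of -0.24 to 0.28.

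The second IRS2 probe set, 209184_s_at, was dimmer and read 478.8, 548.8 and 422.2 in DMSO, 606.2, 546.7 and 635.2 at 0.1 µM, and 726.2, 724.5 and 760.8 at 1.0 µM. Here the 0.1 µM arrays lay between the other groups, with 1 of them level with the highest DMSO array. It rose by 0.60 ± 0.12 at 1.0 µM (adjusted p = 0.00384), and its 0.1 µM value was 0.30 ± 0.12 (adjusted p = 0.155). Between the doses, 1.0 µM was higher than 0.1 µM by 0.70 ± 0.12 for 209185_s_at (adjusted p = 0.0219 over genes and 0.0403 over probe sets) and by 0.30 ± 0.12 for 209184_s_at (adjusted p = 0.386).

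The IRS2 rise at 1.0 µM against DMSO was called with any 1 array left out. Within the hybridisation-control sets, 209185_s_at had 0.63 in the lower set and 0.90 in the higher set, 1 array against 1, where 209184_s_at had 0.39 and was not called. The difference between the doses was less secure: it lost its call over genes without 0.1 µM replicate 1 (adjusted p = 0.130), 0.1 µM replicate 3 (0.0851), 1.0 µM replicate 1 (0.0547) or 1.0 µM replicate 3 (0.127). Over probe sets the 209185_s_at call was lost without DMSO replicate 1 or any 1 of the 6 treated arrays.

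PIK3R1, which encodes p85-alpha, the subunit that holds and steadies the p110 catalytic subunit, fell at 1.0 µM in all 3 of its probe sets. For 212239_at the signals were 706.6, 653.1 and 595.8 in DMSO, 475.5, 505.8 and 536.2 at 0.1 µM, and 496.1, 404.2 and 444.4 at 1.0 µM. All 6 treated arrays were below the 3 DMSO arrays, and the doses overlapped each other. Means were 651.8 ± 55.4 in DMSO, 505.8 ± 30.4 at 0.1 µM and 448.2 ± 46.1 at 1.0 µM (SD, n = 3 each). The change was -0.53 ± 0.12 (SE) at 1.0 µM with an adjusted p of 0.00679. At 0.1 µM it was -0.35 ± 0.12 with an adjusted p of 0.0756, which was not called. The difference between the doses was -0.17 ± 0.12 (adjusted p = 0.621, 95% interval -0.43 to 0.09).

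The other PIK3R1 probe sets had the same order. For 212240_s_at the arrays read 325.0, 331.3 and 435.4 in DMSO, 236.3, 272.7 and 247.0 at 0.1 µM, and 255.9, 234.6 and 211.9 at 1.0 µM. For 212249_at they read 190.6, 162.5 and 196.6 in DMSO, 122.9, 153.7 and 99.2 at 0.1 µM, and 114.9, 94.9 and 116.4 at 1.0 µM. In both, each treated array was below each DMSO array. Changes were -0.59 ± 0.15 (adjusted p = 0.0160) and -0.68 ± 0.19 (adjusted p = 0.0286) at 1.0 µM, and -0.49 ± 0.15 (adjusted p = 0.0645) and -0.51 ± 0.19 (adjusted p = 0.135) at 0.1 µM.

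For 212239_at the fall at 1.0 µM was called with any 1 array left out, and it was -0.45 in the lower hybridisation-control set (adjusted p = 0.0722) and -0.67 in the higher set. The 212240_s_at call was lost without replicate 3 of DMSO (adjusted p = 0.0529) or of 1.0 µM (0.0702), and the 212249_at call without DMSO replicate 1 or 3 or any 1 of the 1.0 µM arrays (adjusted p = 0.0586 to 0.0862). In the lower set the 2 dimmer probe sets had -0.66 (adjusted p = 0.0710) and -0.67 (0.0606), and in the higher set -0.47 and -0.69, with neither called. With the mean of the 3 probe sets in place of the brightest, PIK3R1 was also called at 0.1 µM, at an adjusted p of 0.0220.

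**Figure D2:**
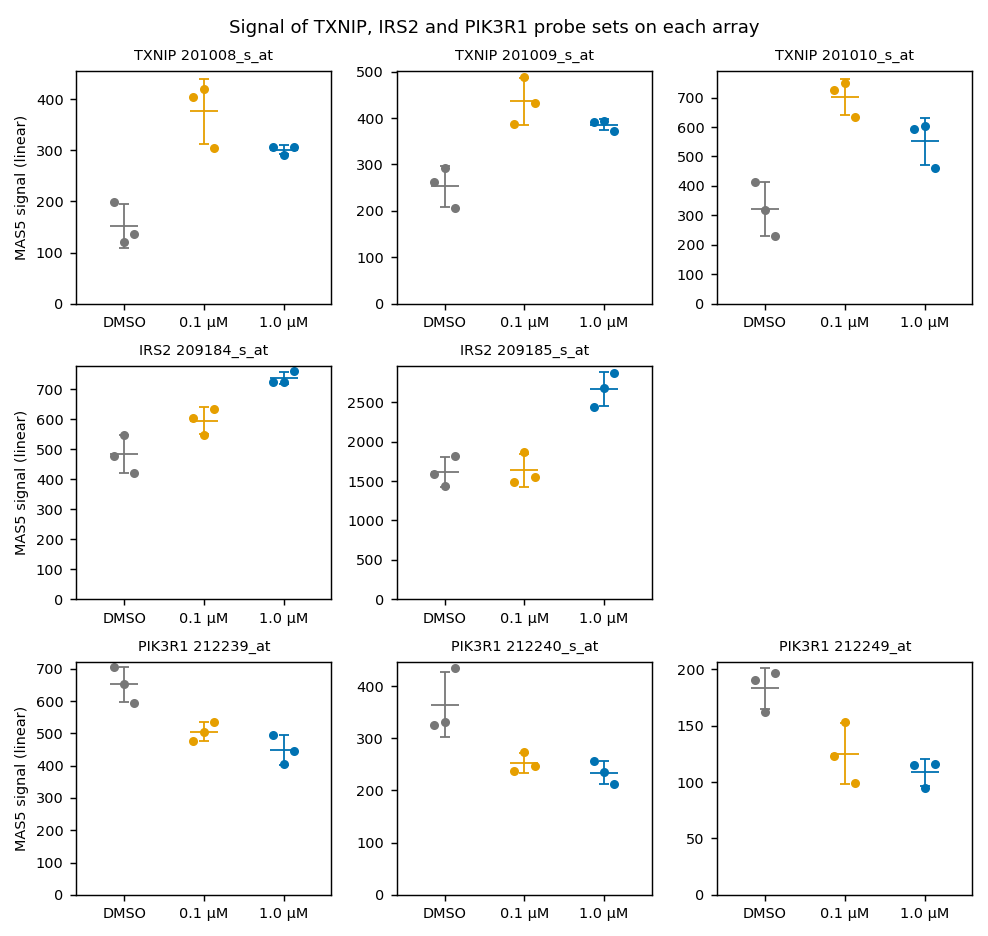
Signal on each array (points, linear scale from 0) for the 8 probe sets of TXNIP, IRS2 and PIK3R1 in DMSO, 0.1 µM and 1.0 µM TVB-3166, with group mean and SD (n = 3). TXNIP 201010_s_at lies between 229.1 and 412.4 in DMSO and from 459.7 upward on the treated arrays, and IRS2 209185_s_at reaches 2441.4 or more only at 1.0 µM.

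FOXO1 and FOXO3, the forkhead factors that AKT keeps out of the nucleus, were not called. FOXO1 was dim, and 202724_s_at read 126.9, 111.2 and 63.6 in DMSO, 136.6, 87.8 and 88.3 at 0.1 µM, and 104.6, 92.9 and 53.3 at 1.0 µM. The groups overlapped, with changes of -0.22 ± 0.30 at 1.0 µM (adjusted p = 0.657) and 0.06 ± 0.30 at 0.1 µM (adjusted p = 0.922), with 95% intervals of -0.87 to 0.42 and -0.58 to 0.71. The second probe set, 202723_s_at, read a tight 97.7, 99.3 and 98.5 in DMSO, 65.3, 39.8 and 83.4 at 0.1 µM, and 51.7, 94.8 and 47.3 at 1.0 µM. Each treated array was lower, but the spread among them was wide, and -0.55 ± 0.28 (adjusted p = 0.220) and -0.58 ± 0.28 (adjusted p = 0.262) were not called. The third, 228484_s_at, was too dim to test, at 5.1 to 38.2 over the 9 arrays.

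FOXO3 was bright. Its probe set 224891_at read 4110.4, 4026.5 and 4217.5 in DMSO, 4116.0, 4297.5 and 4068.3 at 0.1 µM, and 4713.1, 4939.2 and 4769.7 at 1.0 µM. The 1.0 µM arrays stood above the other 6 by a small margin, and 0.1 µM overlapped DMSO. The change was 0.22 ± 0.08 at 1.0 µM, or 1.17-fold, with an adjusted p of 0.0645, and 0.01 ± 0.08 at 0.1 µM. It passed the threshold with quantile normalization (adjusted p = 0.0298), a filter at the 60th percentile (0.0438), array weights (0.0243) or the hybridisation-control set as a term (0.0173). The other 2 tested probe sets had values of 0.12 and 0.27 at 1.0 µM, neither called, and 231548_at was too dim to test. A further 3 probe sets carry both FOXO3 and FOXO3B in the annotation, were not counted, and were not called at either dose.

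**Figure D3:**
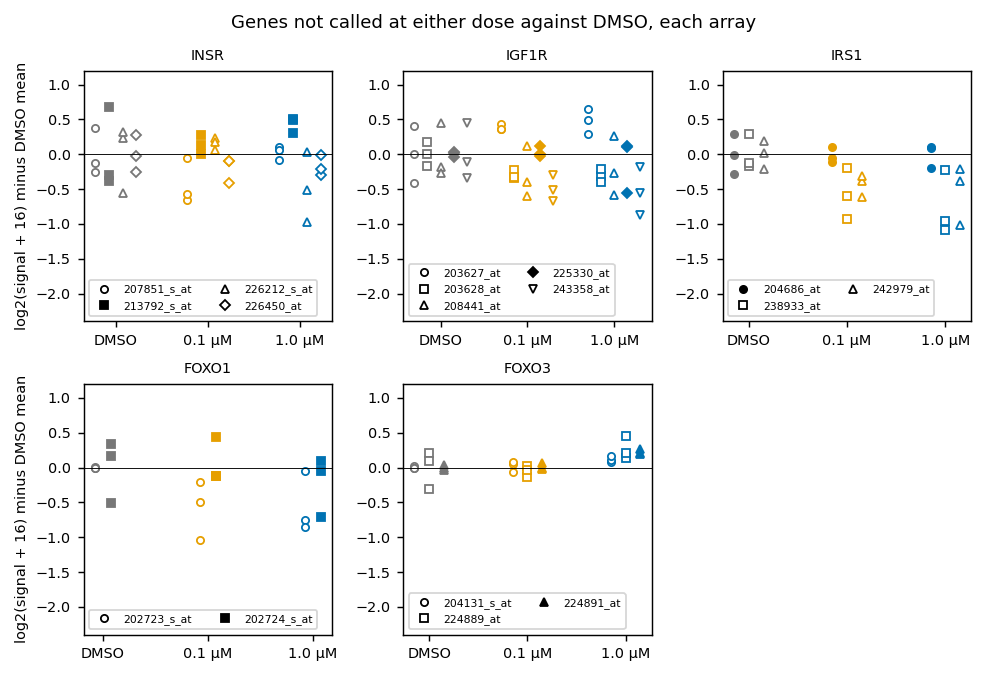
Each array's log2(signal + 16) minus the DMSO mean of the same probe set (vertical axis) for INSR, IGF1R, IRS1, FOXO1 and FOXO3 in DMSO, 0.1 µM and 1.0 µM, with 1 symbol per probe set and filled symbols for the brightest. The 3 filled FOXO3 points at 1.0 µM sit tightly above 0 (mean 0.22), while the probe sets of INSR, IGF1R and IRS1 lie on both sides of 0 or spread widely.

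TXNIP rose at both doses in all 3 of its probe sets. For 201010_s_at the signals were 412.4, 318.6 and 229.1 in DMSO, 725.7, 750.4 and 634.0 at 0.1 µM, and 592.5, 601.9 and 459.7 at 1.0 µM. Every treated array was above every DMSO array, and every 0.1 µM array was above every 1.0 µM array. Means were 320.0 ± 91.7 in DMSO, 703.4 ± 61.3 at 0.1 µM and 551.4 ± 79.5 at 1.0 µM (SD, n = 3 each).

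The TXNIP change was 0.78 ± 0.19 (SE) at 1.0 µM, or 1.72-fold, with an adjusted p of 0.00952, and 1.13 ± 0.19 at 0.1 µM, or 2.19-fold, with an adjusted p of 0.00181. The difference of 1.0 µM against 0.1 µM, -0.35 ± 0.19, was not called (adjusted p = 0.490, 95% interval -0.75 to 0.06), so an order of the doses was not shown. Both rises were called with any 1 array left out. Within the hybridisation-control sets the 1.0 µM change was 0.73 in the lower and 0.88 in the higher set, and the 0.1 µM change 1.24 and 1.05. With the lower set alone, where 0.1 µM has 1 array, neither passed (adjusted p = 0.0962 at 1.0 µM and 0.112 at 0.1 µM).

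For 201008_s_at the arrays read 199.9, 120.2 and 135.5 in DMSO, 405.1, 420.1 and 304.0 at 0.1 µM, and 306.8, 290.6 and 306.8 at 1.0 µM. For 201009_s_at they read 261.9, 292.5 and 205.2 in DMSO, 387.9, 488.0 and 431.8 at 0.1 µM, and 391.0, 393.6 and 372.0 at 1.0 µM. In both, the treated arrays stood clear of DMSO while the doses overlapped each other. With the lower set alone their 0.1 µM calls were lost (1.27 and 1.02, adjusted p = 0.0731 and 0.0798), and with the higher set alone 201009_s_at had 0.41 at 1.0 µM and 0.46 at 0.1 µM, neither called. Rises were 0.95 ± 0.19 (adjusted p = 0.00394) and 0.59 ± 0.15 (adjusted p = 0.0151) at 1.0 µM, and 1.24 ± 0.19 (adjusted p = 0.00134) and 0.76 ± 0.15 (adjusted p = 0.00713) at 0.1 µM. All TXNIP and IRS2 probe sets have identifiers ending in _s_at, a type that can also bind related transcripts.

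**Figure D4:**
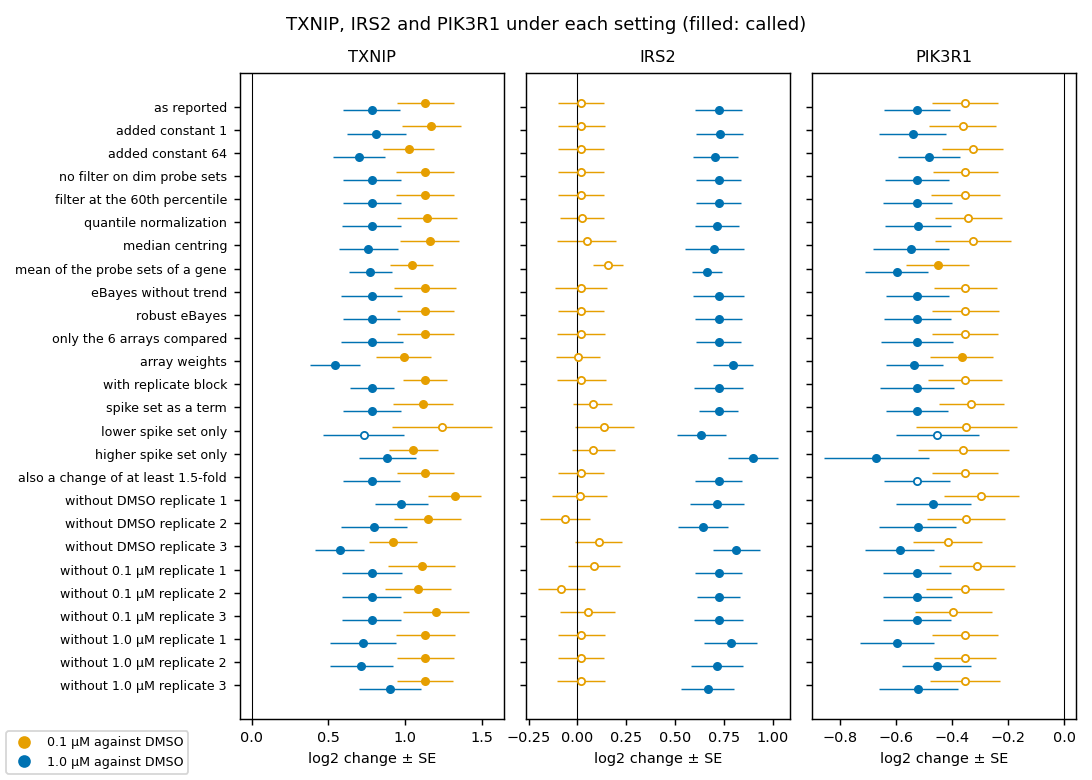
Log2 change ± SE of TXNIP, IRS2 and PIK3R1 against DMSO (horizontal axes, each with its own range) as reported and under 25 alternatives, at 0.1 µM (upper of each pair) and 1.0 µM (lower), filled where called. TXNIP stays to the right of 0 in each setting, IRS2 at 0.1 µM stays near 0 and open, and PIK3R1 at 0.1 µM is filled in 2 settings.

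The other tested genes whose pattern over the 9 arrays lay nearest to each called gene were found by the root-mean-square difference of log2 values, each centred on its own DMSO mean. For IRS2 these were PRTFDC1 (0.106) and VPS37D (0.125), with 1.0 µM changes of 0.64 ± 0.17 and 0.68 ± 0.18 and 0.1 µM changes of 0.08 ± 0.17 and 0.04 ± 0.18. For PIK3R1 they were MTF2 (0.0441), which had -0.48 ± 0.10 at 1.0 µM and -0.35 ± 0.10 at 0.1 µM, and OSGEPL1 (0.0587). For TXNIP they were HERC5 (0.171), which had 0.88 ± 0.15 at 1.0 µM and 1.04 ± 0.15 at 0.1 µM, and LOC105375527 (0.177). All these points come from the same 9 arrays.

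Around these genes, 143 further genes of the pathway were read in 8 lists, of which 122 were tested. The lists were chosen with earlier results of these data known, so the shares called describe these genes and do not test the pathway. Each value is that of the brightest probe set of its gene, and other probe sets of a gene were not always called. At 1.0 µM 24 rose and 19 fell, 35.2% called beside 23.2% of all genes (12.3% higher and 11.0% lower). At 0.1 µM 15 rose and 10 fell, 20.5% called beside 12.0% of all genes (6.89% higher and 5.11% lower). The median change of the 122 was -0.03 at 1.0 µM and -0.01 at 0.1 µM, beside 0.01 and -0.01 over all genes.

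Of 9 tested ligands, related receptors and binding proteins, 1 rose and 3 fell at 1.0 µM, and 1 fell at 0.1 µM (medians -0.04 and 0.07). The share called was 44.4% at 1.0 µM and 11.1% at 0.1 µM, beside 23.2% and 12.0% of all genes. The 3 that fell were genes named for insulin-like growth factor binding: IGFBP2 by 0.81 ± 0.13 (911.9 ± 128 at 1.0 µM against 1617 ± 251 in DMSO), IGFBP3 by 0.84 ± 0.20 and IGFBP7 by 0.74 ± 0.16. IGFBP3 also fell at 0.1 µM, by 0.70 ± 0.20 (adjusted p = 0.0438), a call lost without any 1 of DMSO replicates 1 and 2, the 0.1 µM arrays and 1.0 µM replicate 3 (adjusted p = 0.0651 to 0.145), and without DMSO replicate 3 or 1.0 µM replicate 2 the list had 2 calls at 0.1 µM. IGF2R, which takes up insulin-like growth factor 2 for breakdown, rose by 0.36 ± 0.11 at 1.0 µM, a call lost without DMSO replicate 1 or 2 or 1.0 µM replicate 1 or 3 (adjusted p = 0.0808 to 0.104). Its 3 probe sets ran from -0.08 to 0.44 at 1.0 µM, with 1 called.

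Of 12 tested receptor adaptors, 3 rose at 1.0 µM and 1 at 0.1 µM, and the others were not called (medians 0.25 and 0.21). Calls made up 25% at 1.0 µM and 8.33% at 0.1 µM, beside 23.2% and 12.0% of all genes. GRB10, an adaptor that binds the insulin receptor and dampens it, rose by 1.06 ± 0.08 at 1.0 µM and 0.77 ± 0.08 at 0.1 µM, with signals of 1750 ± 92.5 in DMSO, 2997 ± 53.5 at 0.1 µM and 3675 ± 136 at 1.0 µM. Of its 4 probe sets, 3 were called at 1.0 µM (range 0.43 to 1.46) and 2 at 0.1 µM (-0.05 to 1.08). GAB2, a docking protein for PI3-kinase, rose by 0.79 ± 0.11 at 1.0 µM and had 0.22 at 0.1 µM. CBL, a ubiquitin ligase of activated receptors, rose by 0.44 ± 0.13 at 1.0 µM, a call lost without DMSO replicate 1 or 2 or 1.0 µM replicate 1 or 3 (adjusted p = 0.0544 to 0.109). Its 5 probe sets ran from 0.11 to 0.55 at 1.0 µM, with 2 called. Of 10 other PI3-kinase subunits and partners, 2 rose at each dose (medians -0.15 and -0.09), 20% beside 23.2% of all genes at 1.0 µM and 12.0% at 0.1 µM. PIK3CD, the p110-delta catalytic subunit, rose by 1.08 ± 0.11 at 1.0 µM (1128 ± 105 against 524.2 ± 24.8) and by 0.43 ± 0.11 at 0.1 µM, the second lost without DMSO replicate 1 or 3 or 0.1 µM replicate 1 or 3 (adjusted p = 0.0519 to 0.105), which left 1 call. The 2 PIK3CD probe sets ran from 0.37 to 1.08 at 1.0 µM, and 1 was called at each dose. PIK3IP1, a membrane protein that inhibits p110, rose by 0.66 ± 0.14 at 1.0 µM and 1.12 ± 0.14 at 0.1 µM, though its 3 probe sets ran from -0.04 to 0.67 at 1.0 µM. Without DMSO replicate 3 or 1.0 µM replicate 2 the PI3-kinase count at 1.0 µM was 4.

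Of 14 tested lipid and protein phosphatases and TRIB pseudokinases, 3 rose and 3 fell at 1.0 µM, and 1 rose and 1 fell at 0.1 µM (medians -0.06 and -0.10). The share called was 42.9% at 1.0 µM and 14.3% at 0.1 µM, beside 23.2% and 12.0% of all genes. TRIB3, a pseudokinase that binds AKT, had the largest change of the 8 lists, a rise of 2.02 ± 0.14 at 1.0 µM and 1.84 ± 0.14 at 0.1 µM (signals of 2755 ± 279 in DMSO, 9964 ± 1812 at 0.1 µM and 11222 ± 1211 at 1.0 µM). TRIB2, its relative, fell by 0.82 ± 0.10 at 1.0 µM and had -0.18 at 0.1 µM, and TRIB1 rose by 0.47 ± 0.11 at 1.0 µM (adjusted p = 0.0510 without 1.0 µM replicate 1). PTPRF, a receptor tyrosine phosphatase, fell by 0.72 ± 0.11 at 1.0 µM and 0.47 ± 0.11 at 0.1 µM, the second lost without replicate 1 of DMSO (adjusted p = 0.0509) or of 0.1 µM (0.0691), which left 1 call at 0.1 µM, while without 0.1 µM replicate 2 there were 4.

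Of 22 tested genes of AKT, mTOR and their partners and targets, 3 rose and 2 fell at 1.0 µM, and 3 rose and 1 fell at 0.1 µM (medians -0.09 and 0.04). Calls made up 22.7% at 1.0 µM and 18.2% at 0.1 µM, beside 23.2% and 12.0% of all genes. The translation repressors moved in opposite directions: EIF4EBP1 rose by 1.61 ± 0.10 at 1.0 µM and 1.34 ± 0.10 at 0.1 µM, and EIF4EBP2 fell by 0.90 ± 0.12 at 1.0 µM and 0.54 ± 0.12 at 0.1 µM. SGK1, a kinase related to AKT, fell by 0.81 ± 0.17 at 1.0 µM and had -0.45 at 0.1 µM. DEPTOR, an inhibitor of mTOR, rose by 0.57 ± 0.14 at 1.0 µM, lost without 1.0 µM replicate 3 (adjusted p = 0.0571), and by 0.48 ± 0.14 at 0.1 µM, lost without any 1 of the DMSO and 0.1 µM arrays or 1.0 µM replicate 1 (adjusted p = 0.0507 to 0.134). The count at 0.1 µM was 2 without DMSO replicate 1 or 2 or 0.1 µM replicate 1 or 3.

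Of 10 other FOXO factors and regulators, 2 fell at each dose (medians -0.04 and -0.02), 20% beside 23.2% of all genes at 1.0 µM and 12.0% at 0.1 µM. FOXO6, a further FOXO factor, fell by 0.89 ± 0.14 at 1.0 µM and 0.79 ± 0.14 at 0.1 µM. SKP2, which marks FOXO1 for breakdown, fell by 0.91 ± 0.16 at 1.0 µM and 0.63 ± 0.16 at 0.1 µM, the second lost without DMSO replicate 1 or 2 or any 1 of the 0.1 µM arrays (adjusted p = 0.0548 to 0.0904), which left 1 call. Both are read by probe sets ending in _x_at, which can bind other transcripts. SKP2 had 3 probe sets, with 3 called at 1.0 µM (-1.12 to -0.91) and 3 at 0.1 µM (-0.82 to -0.63). Without 1.0 µM replicate 2 the count at 1.0 µM was 4.

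Of 34 tested genes described as FOXO targets, 9 rose and 9 fell at 1.0 µM, and 6 rose and 5 fell at 0.1 µM (medians 0.01 and -0.06). These counts do not part genes that FOXO factors switch on from genes they switch off, so they do not measure FOXO activity. The share called was 52.9% at 1.0 µM and 32.4% at 0.1 µM, beside 23.2% and 12.0% of all genes. Those that rose at 1.0 µM were TSC22D3, SESN2, SOD2, CDKN1A, CCND2, FBXO32, GADD45A, KLF2 and KLF6, and those that fell were BCL2L11, PDK4, CITED2, CAT, CCND1, SESN1, DDB1, BNIP3 and KITLG, most of them named after their values were seen. TSC22D3, a glucocorticoid-responsive leucine zipper protein, rose by 1.34 ± 0.10 at 1.0 µM and 1.41 ± 0.10 at 0.1 µM, with signals of 938.3 ± 85.3 in DMSO, 2523 ± 101 at 0.1 µM and 2405 ± 191 at 1.0 µM. SESN2, a stress protein that restrains mTORC1, rose by 1.76 ± 0.17 at 1.0 µM and 1.37 ± 0.17 at 0.1 µM. BCL2L11, which encodes the pro-death protein BIM, fell by 1.08 ± 0.09 at 1.0 µM and 0.93 ± 0.09 at 0.1 µM, with signals of 2582 ± 136 in DMSO, 1346 ± 103 at 0.1 µM and 1215 ± 34.8 at 1.0 µM and with 4 of its 7 probe sets called at 1.0 µM. SOD2, the mitochondrial superoxide dismutase, rose by 1.48 ± 0.18 at 1.0 µM and 0.62 ± 0.18 at 0.1 µM, the second lost without DMSO replicate 2 or 3, any 1 of the 0.1 µM arrays or 1.0 µM replicate 3 (adjusted p = 0.0614 to 0.137). The count at 0.1 µM, 11, was 7 without any 1 of the DMSO arrays, 6 without 0.1 µM replicate 1 and 5 without 0.1 µM replicate 3. It was 3 with the lower hybridisation-control set alone and 7 with a 1.5-fold rule, and the count at 1.0 µM, 18, was 11 with the higher set alone and 10 with a 1.5-fold rule.

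Of 12 tested partners, relatives and glucose-sensing regulators of TXNIP, 3 rose at 1.0 µM and 2 at 0.1 µM (medians 0.15 and 0.10). Calls made up 25% at 1.0 µM and 16.7% at 0.1 µM, beside 23.2% and 12.0% of all genes. MLXIPL, the glucose-sensing factor also called ChREBP, rose by 1.03 ± 0.31 at 1.0 µM and 1.10 ± 0.31 at 0.1 µM, with a dim DMSO signal of 50.9 ± 22.2. Its calls were lost without DMSO replicate 1 or any 1 of the 1.0 µM arrays at 1.0 µM (adjusted p = 0.0521 to 0.104), and without DMSO replicate 1 or 3, 0.1 µM replicate 1 or 3 or 1.0 µM replicate 3 at 0.1 µM (0.0504 to 0.157). MLX, its dimer partner, rose by 0.30 ± 0.08 at 1.0 µM, lost at an adjusted p of 0.0506 without DMSO replicate 2 and 0.0567 without 1.0 µM replicate 3. TXNRD1, thioredoxin reductase, rose by 0.59 ± 0.16 at 1.0 µM, lost without DMSO replicate 1 (adjusted p = 0.0657) or 3 (0.0604). ARRDC4, the arrestin most like TXNIP, rose by 0.66 ± 0.19 at 0.1 µM and had 0.41 ± 0.19 at 1.0 µM, the first lost without DMSO replicate 2 or 3, 0.1 µM replicate 1 or 2 or 1.0 µM replicate 1 or 3 (adjusted p = 0.0522 to 0.130). The list's count was 1 at 1.0 µM without DMSO replicate 1 or 1.0 µM replicate 3, and at most 1 at 0.1 µM without any 1 of DMSO replicates 1, 2 and 3, 0.1 µM replicates 1 and 3 and 1.0 µM replicates 1 and 3.

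**Figure D5:**
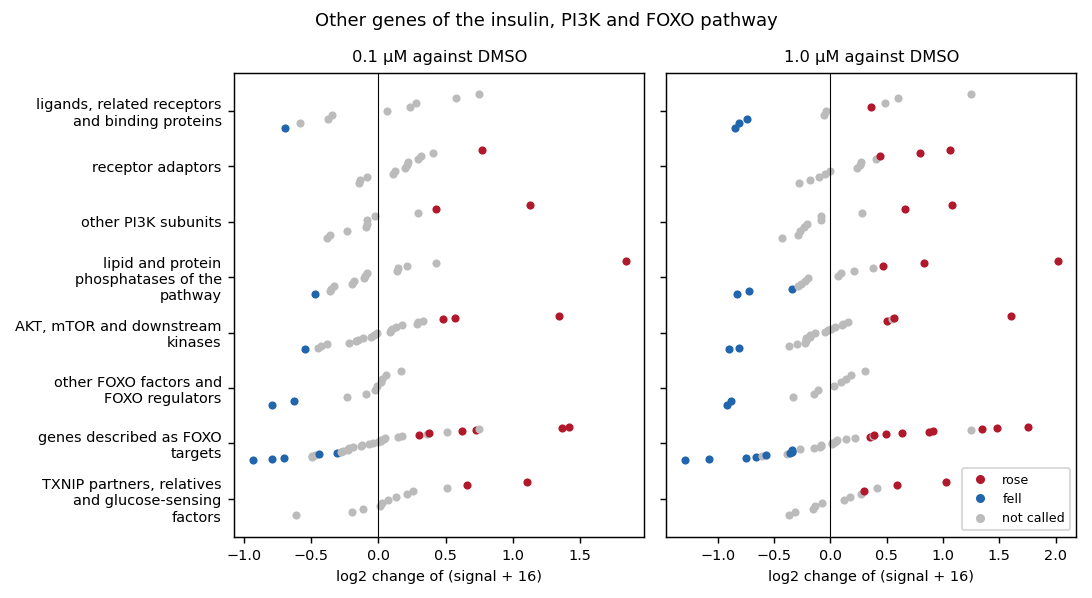
Log2 change (horizontal axis) of each tested gene of the 8 lists at 0.1 µM (left) and 1.0 µM (right) against DMSO, with 1 point per gene and colour for genes that rose, fell or were not called. TRIB3 is the point farthest right in both panels (1.84 and 2.02), and the FOXO targets spread to both sides of 0.

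Between the doses, 3 of the 122 list genes were higher and 1 was lower at 1.0 µM than at 0.1 µM, 3.28% called beside 0.817% of all genes. These were GAB2 (0.57 ± 0.11), PIK3CD (0.65 ± 0.11), GADD45A (0.45 ± 0.09, named after its value was seen) and TRIB2 (-0.65 ± 0.10). The lists were picked with earlier results known, so the share of 3.28% is a description only. The GAB2 call was lost without any 1 of the 0.1 µM arrays or 1.0 µM replicate 1 or 3 (adjusted p = 0.0824 to 0.189), the PIK3CD call without 0.1 µM replicate 1 or 2 or 1.0 µM replicate 3 (0.0747 to 0.117), and the TRIB2 call without 0.1 µM replicate 1 or 2 or 1.0 µM replicate 1 or 3 (0.0675 to 0.123). The GADD45A call was lost without each array but DMSO replicate 3 (adjusted p = 0.0536 to 0.191). All 4 calls were lost with eBayes without trend or the lower hybridisation-control set alone, those of GAB2, PIK3CD and GADD45A with median centring, those of GAB2 and GADD45A with no filter or a 1.5-fold rule, that of GADD45A with only the 6 arrays compared, and that of GAB2 with the higher set alone. With the mean of its probe sets PIK3CD had 0.36 (adjusted p = 0.290).

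Of the 116 list genes with a RefSeq window, GTAAACA occurred in those of 11: ARRDC3, BCL2L11, FOXO4, IGF1, IGFBP6, MXI1, PIK3IP1, PPP2R5C, SH2B3, TRIB2 and TSC22D3, beside 4.19% of all 27305 genes with a window. These include genes that rose at 1.0 µM (PIK3IP1, TSC22D3) and genes that fell (BCL2L11, PPP2R5C, TRIB2). CAAAACAA occurred in those of 5, GAB2, IRS4, PIK3CD, PIK3CG and SH2B3, beside 2.08% of all genes, and of these GAB2 and PIK3CD rose at 1.0 µM. The carbohydrate response element form occurred in none of the 116 and in 0.0732% of all genes. The lists hold genes chosen as described FOXO targets, so these motif counts are a description only.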

How the data were processed

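Affymetrix HG-U133 Plus 2.0 arrays, 1 for each of 9 PANC-1 samples, measured transcript levels. The authors deposited a linear hybridisation intensity for each probe set, made with MAS5 per the submitters' processing notes, in a version not given in the sources used here. The trimmed mean of every array (2% off each end) is 500.1. Samples were grouped by title: the treatment field of the 1.0 µM samples gives 0.1 µM, 0.1 µM replicate 1 is described as DMSO, and the DMSO share appears as 0.05% and as 0.5%.

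Intensities were turned into log2(signal + 16), which makes folds smaller than the ratio of the signals. Gene symbols came from the supplied annotation, matched by Entrez identifier to RefSeq on GRCh38.p14 (41043 of 41091 probe sets with 1 symbol), and probe sets with several symbols were not used. Probe sets were kept if their mean level exceeded the 40th percentile. The 3 groups were fitted in 1 model with limma 3.58.1 (lmFit, eBayes with trend) in R 4.3.3, with two-sided p-values and Benjamini-Hochberg adjustment over every tested gene (probe-set values over every tested probe set) and calls at an adjusted p under 0.05. The fit was tested on simulated data. Promoters were RefSeq windows of 250 bases before and 50 after each start.

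The 9 genes and the 8 lists were chosen with earlier results of these data known. From each list the text names up to 4 called genes with the smallest adjusted p at 1.0 µM and up to 2 called only at 0.1 µM, and for each called gene of the 8 the 2 nearest patterns. There were 25 alternatives: other constants, filters, normalizations, variance models and call rules, probe sets averaged per gene, only the 6 arrays compared, a block for the replicate number, array weights, the hybridisation-control set as a term or alone, and each array left out.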

Additional observations from a re-analysis of the deposited data

How the results depend on the processing

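Of 594 values of the 8 genes under the alternatives, 571 had the outcome reported, 12 lost a call, 11 gained one, and no called direction turned. Most of the 571 were values not called in either setting. Of 25 alternatives for IRS2 between the doses, 8 lost the call. At 1.0 µM against DMSO, 3 genes and 8 probe sets became 5 and 14 with array weights and 1 and 4 with the lower hybridisation-control set alone. At 0.1 µM, 1 gene and 3 probe sets became 2 genes with array weights or with probe sets averaged per gene, and 0 and 0 with the lower set alone, where limma gave 1 gene and 4 probe sets at an unadjusted p under 0.05. In 1.0 µM against 0.1 µM, 1 gene and 1 probe set became 0 and 0 with median centring, eBayes without trend, the replicate block or the lower set. The probe-set count was also 0 with no filter or only the 6 arrays, and the gene count was 2 with array weights or the higher set (1 array at 1.0 µM). Leaving out each array gave 0 to 1 for both counts. Where these counts were 0, limma gave 1 to 5 at an unadjusted p under 0.05. The causes were not tested. Whether replicate numbers pair the samples was not settled. Correlations of deviations for same-numbered arrays ran from -0.34 to 0.22, over 0.1 in 1 of 9 pairs. That pair, replicate 1 of DMSO and of 1.0 µM, lay within the lower hybridisation-control set. Most of the other same-numbered pairs lay across the 2 sets, so these correlations cannot decide on pairing. Beside the dose comparison, the block ended the 212249_at call at 1.0 µM (adjusted p = 0.0640 by limma), and it ended the 4 list calls between the doses (0.0671 to 0.158). Of the named list genes it also ended the IGF2R call at 1.0 µM against DMSO (0.0505). At 0.1 µM against DMSO it ended the calls of IGFBP3, PIK3CD, DEPTOR, SKP2, MLXIPL and ARRDC4 (0.0588 to 0.0993). At 0.1 µM, 4 of the 8 lists had 0 calls with the lower set, and at 1.0 µM the PI3-kinase subunits, 2 as reported, had 6 with array weights. A rule of at least 1.5-fold ended the PIK3R1 call. With the hybridisation-control set as a term, 4 genes and 12 probe sets were called at 1.0 µM against DMSO. Over all genes, calls between the doses ran from 1 (lower set) to 1953 (array weights), beside 114 as reported. Calls at 0.1 µM, 1674 as reported, were 324 with the lower set, 924 with the 1.5-fold rule, 1054 and 843 without 0.1 µM replicates 1 and 3, and 1092 without DMSO replicate 1. Calls at 1.0 µM, 3240 as reported, were 1788 with the 1.5-fold rule. The dim probe sets that stood for INSR and FOXO1 had SEs of 0.27 and 0.30, beside 0.08 for the bright one of FOXO3.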
